A study of Homo sapiens with 30 samples.

Results

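The 5 genes described here, in which variants cause inherited distal or rimmed-vacuole myopathy, were followed through every library of the series: SQSTM1, VCP, DNAJB6, GNE and FLNC. They were taken by symbol from the count table, where each matched 1 row, so the account covers 5 of 60664 genes over all 30 libraries. The study asked how RNA in the cytosol and in stress granule cores depends on TIA1, an RNA-binding protein of stress granules, and on its form with the Welander distal myopathy mutation. All cells were Flp-In T-REx-HEK293, a human embryonic kidney line into which a construct is placed at a fixed site and is expressed when tetracycline is added. Both derived lines carried a GFP-TIA1a construct, 1 line wild type (WT) and 1 line with the Welander mutation (WDM). Stress granule cores were the material pelleted from a cleared lysate and captured on beads through GFP.

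There were 10 groups of 3 libraries. The cytosol was sequenced for each line without treatment, with tetracycline alone, and with tetracycline plus 0.5 mM sodium arsenite (NaAsO2), which causes oxidative stress, for 60 min. The granule fraction was sequenced for each line with tetracycline alone and with tetracycline plus arsenite, and has no untreated group. Each genotype was 1 stably transfected line, so the mutation and the line cannot be told apart. The host cells are kidney cells and not muscle. The labels do not say whether the 3 libraries of a group came from separate cultures, so p-values measure the spread between these libraries, which may be technical.

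The 5 genes meet in protein quality control and in the upkeep of muscle fibres. SQSTM1 (p62) is the receptor that ties ubiquitinated cargo to the autophagosome and also holds KEAP1, the inhibitor of the oxidative stress factor NRF2. VCP (p97) is the hexameric ATPase that pulls ubiquitinated proteins out of complexes and membranes, and it takes part in clearing stress granules. DNAJB6 is a J-domain co-chaperone that keeps aggregation-prone proteins soluble and works with BAG3 and HSPB8 in chaperone-assisted autophagy. GNE makes the committed step of sialic acid synthesis. FLNC, filamin C, is the muscle filamin, which cross-links actin at the Z-disc and is itself a client of chaperone-assisted autophagy. In rimmed-vacuole myopathies, autophagic vacuoles and protein aggregates build up in muscle fibres.

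In the count table, SQSTM1 is ENSG00000161011 (chr5:179806398-179838078, plus strand), VCP is ENSG00000165280 (chr9:35053928-35072668, minus strand) and DNAJB6 is ENSG00000105993 (chr7:157335381-157417439, plus strand). GNE is ENSG00000159921 (chr9:36214441-36277042, minus strand) and FLNC is ENSG00000128591 (chr7:128830406-128859274, plus strand). Coordinates are GRCh38 and have the same span in GENCODE 44. The exons of SQSTM1 share 22.4% of their length with genes on the opposite strand, almost all of it with MRNIP. Whether the counting used strand is not given in the sources used here, so reads of SQSTM1 and MRNIP over that stretch cannot be told apart. The shared exon length was 4.69% for VCP, with a gene on its own strand, 0.735% for FLNC, with FLNC-AS1, and 0 for GNE, although CLTA lies within its span on the other strand.

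TIA1 binds U-rich RNA, so the most T-rich stretch of 30 bases in the 3′UTR of each canonical transcript is shown here, read from GRCh38 in the direction of the gene with runs of 3 or more T in capitals. The windows lie at chr5:179836906-179836935 (SQSTM1), chr9:35056644-35056673 (VCP, minus strand), chr7:157416740-157416769 (DNAJB6), chr9:36214493-36214522 (GNE, minus strand) and chr7:128859100-128859129 (FLNC).
SQSTM1: cctaatggcTTTcacTTTctcTTTTgTTTT
VCP: ttgaTTTaTTTTacatgcTTTTgagttaat
DNAJB6: TTTTTTTcttggaTTTTTgctaattaTTTT
GNE: ttaaTTTaTTTTaatgtaaataTTTTTgtt
FLNC: cctgaTTTctctctcactgtctcTTTTTTT
The DNAJB6 window held 21 T of 30 bases, the GNE window 19, and those of SQSTM1, VCP and FLNC 17 each. A match to such letters is a description and not a binding site.

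Library totals ran from 5906167 to 27419145 counts, and levels below are CPM, each gene's share of its library's counts, scaled by TMM factors over all 30 libraries. TIA1 itself had 3 counts in all libraries together and at most 1 in any library, so neither the induction by tetracycline nor the genotype label could be checked in this table. The label calls the cells epithelial: KRT8 stood at 91.3 to 193 CPM and EPCAM at 68.9 to 145 CPM in the cytosol, while CLDN4 stayed under 1 CPM. Of the muscle markers, DES, MYOD1, MYOG, MYF5, CKM and MYH7 stayed under 1 CPM in every library, while TNNT1 stood at 2.24 to 23.7 CPM, NEB at 0.385 to 9.97, TTN at 0 to 3.45 and ACTA1 at 0.0738 to 3.35 CPM.

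VCP was the most abundant of the 5 genes in both fractions and FLNC was close to absent. Per kilobase of all exons, the median cytosolic level was 44.2 CPM for VCP (35.4 to 57.2 over 18 libraries), 23.4 for SQSTM1 (17.4 to 31.2), 10.8 for GNE (7.32 to 13.6), 8.86 for DNAJB6 (6.55 to 11.5) and 0.0577 for FLNC (0 to 0.105). In the granule fraction the medians over 12 libraries were 32.1 for VCP, 13.4 for SQSTM1, 7.57 for GNE, 6.13 for DNAJB6 and 0.172 for FLNC. The order of DNAJB6 and GNE depends on the length used: per kilobase of the canonical transcript, the cytosolic medians were 53.3 for DNAJB6 and 12.0 for GNE. FLNC had 117 counts over the 18 cytosolic libraries and 444 over the 12 granule libraries, and 4 of the 30 libraries held 3 counts or fewer.

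**Figure D1:**
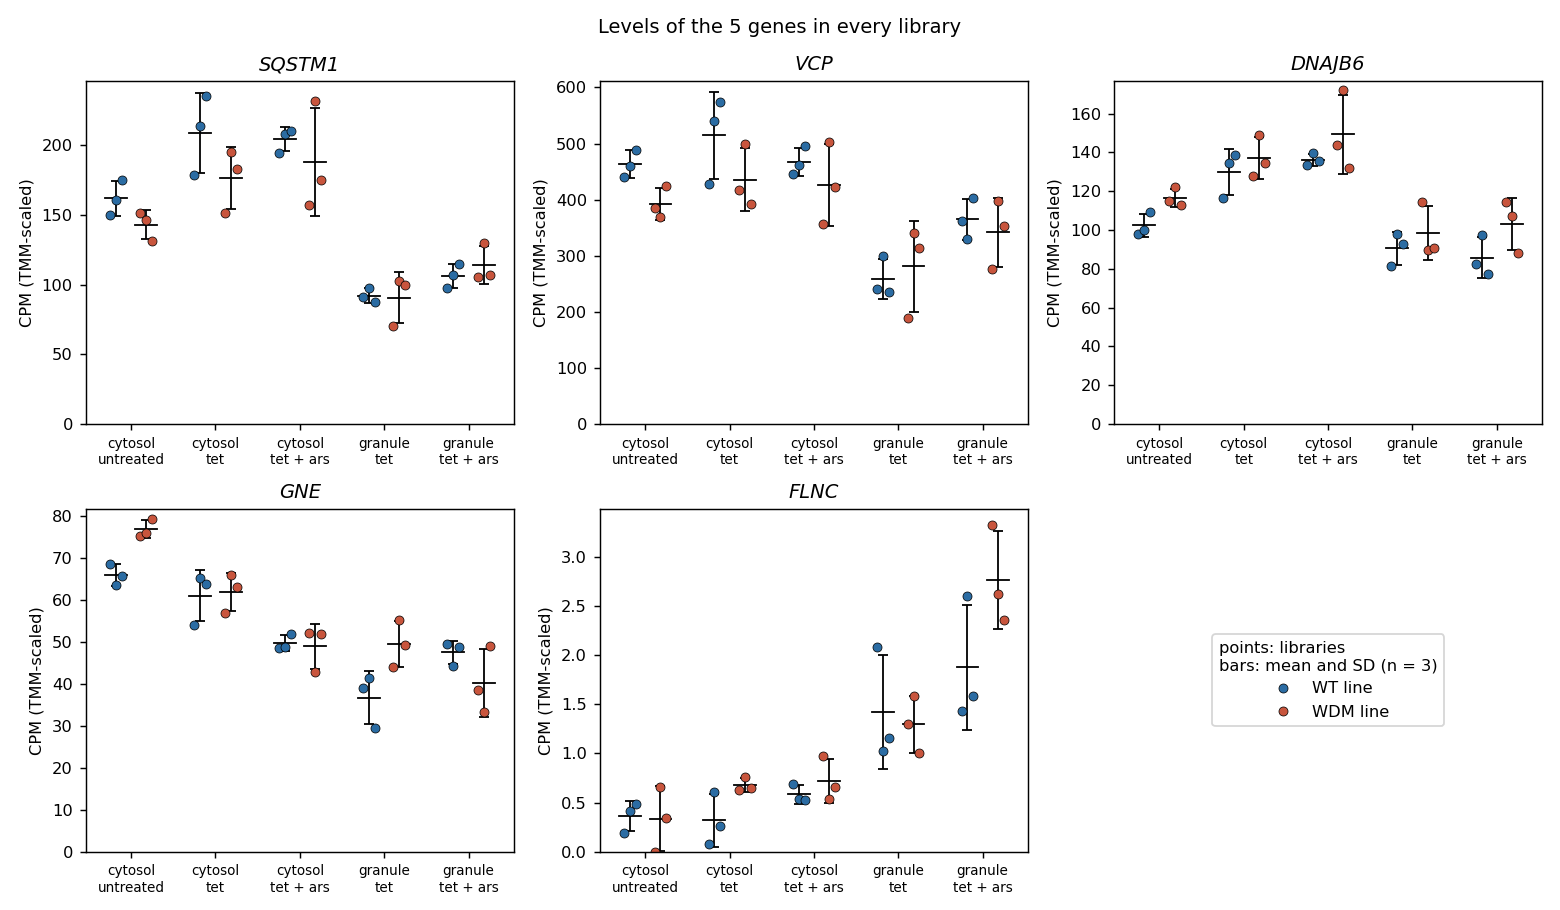
CPM of each of the 5 genes (vertical axes, linear, from 0) in the 10 groups (horizontal axis); points are the 3 libraries of a group and the bars mark the mean and SD, with WT in blue and WDM in red. SQSTM1, VCP and DNAJB6 are lower in the granule groups than in the cytosolic groups with the same treatment, and FLNC is higher there at a level under 4 CPM.

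The largest differences among these genes were between the fractions. The granule fraction was compared with the cytosol of the same line and treatment with edgeR's quasi-likelihood test, with p-values adjusted over all 18141 genes tested. FLNC is left out of the counts here, since it passed the filter on low counts only through the granule libraries. With tetracycline alone, all 4 of the others were lower in the granule fraction in each line. The background was 75.7% of all genes in WT cells (39.5% higher, 36.2% lower) and 71.1% in WDM cells (35.8% higher, 35.3% lower). After arsenite, 3 of the 4 were lower in WT cells (all genes 70.5% called, 35% higher, 35.5% lower) and 4 of 4 in WDM cells (72% called, 36.3% higher, 35.7% lower). With most genes called, a call alone says little about these genes, and the sizes are more informative. CPM is a share of each fraction's counts, so a lower value is a smaller share of the captured RNA and not an amount per cell.

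SQSTM1, the autophagy receptor, was lower in granules in every setting, with the largest differences of the 4 lower genes. In WT cells with tetracycline alone the cytosolic libraries held 178, 213 and 235 CPM and the granule libraries 91.2, 97.6 and 87.3 CPM. The WDM libraries held 151.5, 195 and 183 CPM in the cytosol and 70.0, 103 and 99.4 CPM in granules. The fractions did not overlap in either line. The log2 difference was -1.08 ± 0.15 (SE, n = 3 per group, adjusted p = 3.3e-07) in WT and -0.95 ± 0.15 (adjusted p = 3.3e-06) in WDM cells. After arsenite the WT libraries stood at 194, 208 and 210 CPM in the cytosol against 97.5, 107 and 115 CPM in granules. The WDM libraries after arsenite stood at 157, 232 and 175 CPM against 106, 130 and 107 CPM. Again no granule library reached the lowest cytosolic library, and the log2 differences were -1.04 ± 0.15 (adjusted p = 7.1e-07) and -0.81 ± 0.15 (adjusted p = 2.9e-05). Each of the 4 calls held when any 1 of its 6 libraries was left out.

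VCP, the segregase, was lower in granules by an amount that was smaller after arsenite, though the change in that amount did not pass the test. With tetracycline alone the WT cytosol held 428, 540.5 and 575 CPM and the WT granules 240, 299 and 234 CPM. The WDM cytosol held 417, 498 and 392 CPM and the WDM granules 189, 340 and 314 CPM. The fractions were apart in both lines, with log2 differences of -0.90 ± 0.18 (adjusted p = 7.3e-05) and -0.63 ± 0.18 (adjusted p = 0.0033). After arsenite the WT values were 446, 461 and 495 CPM in the cytosol and 362, 331 and 402 CPM in granules, and the WDM values were 356, 502 and 423 CPM and 276, 398 and 352 CPM. The WDM groups now overlapped, though each granule library was below the cytosolic library of the same number. Same-numbered libraries of these WDM groups deviated together over genes (correlations of 0.422 to 0.802). The log2 differences were -0.46 ± 0.18 in WT (adjusted p = 0.0253) and -0.41 ± 0.18 in WDM cells (adjusted p = 0.0432). The WT call was lost without cytosolic library 3 (adjusted p = 0.0564) or granule library 1 (0.0648) or 2 (0.0779), and with no low-count filter (0.0648). The WDM call was lost without cytosolic library 2 (adjusted p = 0.210) or 3 (0.0777) or granule library 1 (0.216) or 3 (0.0777), and also with RLE factors (0.0743), DESeq2 (0.0669) or no low-count filter (0.106).

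DNAJB6, the co-chaperone, was lower in granules in all 4 settings with no overlap between fractions. In WT cells with tetracycline alone it stood at 117, 135 and 139 CPM in the cytosol and 81.3, 97.7 and 92.9 CPM in granules. The WDM values were 128, 149 and 134 CPM and 114, 89.8 and 90.9 CPM. These gave log2 differences of -0.42 ± 0.14 (adjusted p = 0.00924) and -0.47 ± 0.14 (adjusted p = 0.00399). After arsenite the WT values were 133, 140 and 136 CPM in the cytosol and 82.4, 97.4 and 77.1 CPM in granules, and the WDM values were 144, 172 and 132 CPM and 114, 107 and 88.3 CPM. The log2 differences were -0.77 ± 0.14 (adjusted p = 2.0e-05) and -0.62 ± 0.14 (adjusted p = 0.00028). All 4 calls held in each of their 6 fits with a library left out.

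GNE, the sialic acid enzyme, was lower in granules in 3 of the 4 settings, and 2 of these calls did not hold with a library left out. With tetracycline alone the WT libraries held 54.2, 65.3 and 63.8 CPM in the cytosol and 39.0, 41.5 and 29.6 CPM in granules, a log2 difference of -0.64 ± 0.14 (adjusted p = 0.00017) without overlap. The WDM libraries held 57.0, 65.9 and 63.2 CPM in the cytosol and 44.2, 55.3 and 49.3 CPM in granules. They were apart by little, and the log2 difference of -0.31 ± 0.14 (adjusted p = 0.0453) was lost in 4 of 6 fits with a library left out: cytosolic library 2 (adjusted p = 0.117) or 3 (0.0717), granule library 1 (0.165) or 3 (0.0814). RLE factors (0.0717), DESeq2 (0.0732) and testing with no low-count filter (0.109) ended it too. After arsenite the WT groups overlapped at 48.6, 48.9 and 52.0 CPM against 49.5, 44.4 and 48.7 CPM, with a log2 difference of -0.17 ± 0.14 (adjusted p = 0.266, 95% interval -0.44 to 0.10). Each WDM granule library was below the same-numbered cytosolic library, which was not so in WT cells. The WDM groups overlapped as well, at 52.2, 42.9 and 52.0 CPM against 38.5, 33.2 and 49.2 CPM. Their log2 difference of -0.37 ± 0.14 (adjusted p = 0.0171) was lost without cytosolic library 1 (0.0658) or 3 (0.0665) or granule library 1 (0.0529) or 2 (0.127). It was also lost with no low-count filter (-0.28, adjusted p = 0.170).

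FLNC, the muscle filamin, went the other way at the edge of detection. Its counts in the 3 libraries were 1, 7 and 3 in the WT cytosol with tetracycline alone and 13, 13 and 30 in the WT granules. In WDM cells they were 5, 8 and 12 in the cytosol and 14, 23 and 16 in granules. After arsenite the WT counts were 9, 7 and 7 in the cytosol and 24, 63 and 41 in granules, and the WDM counts were 16, 9 and 9 and 81, 62 and 64. On the CPM scale every granule library, at 1.01 to 3.32, was above every cytosolic library, at 0 to 0.971. The log2 differences were 2.14 ± 0.48 (adjusted p = 0.00021) and 0.95 ± 0.41 (adjusted p = 0.0407) with tetracycline alone, and 1.59 ± 0.38 (adjusted p = 0.00044) and 1.84 ± 0.34 (adjusted p = 1.9e-05) after arsenite, for WT and WDM in turn. FLNC passed the filter on low counts only through the granule libraries, so that a difference between the fractions was built into its being tested. The WDM call with tetracycline alone stood in only 1 of 6 fits with a library left out: it was lost without cytosolic library 1 (adjusted p = 0.0710), 2 (0.0597) or 3 (0.131) or granule library 1 (0.0664) or 2 (0.141). It was also lost with library size alone (0.0530) and with no low-count filter (0.0707).

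The granule minus cytosol difference depended strongly on transcript length across genes, which bears on how the 5 values are read. Over 13584 tested coding genes, Spearman's rho between canonical transcript length and the log2 difference was 0.47 and 0.50 with tetracycline alone and 0.60 and 0.52 after arsenite, for WT and WDM; genes are not independent replicates and the figures describe these libraries. The canonical transcripts measure 2489 nt for DNAJB6, 2840 nt for SQSTM1, 3746 nt for VCP, 5263 nt for GNE and 9159 nt for FLNC, which is longer than 93.6% of these genes. Genes within 10% of the length of SQSTM1 (1370 genes) had median log2 differences of -0.37, -0.38, -0.33 and -0.28 in the settings WT tetracycline, WDM tetracycline, WT arsenite and WDM arsenite. SQSTM1 lay below their lower quartile in the first 3, for example at -1.08 against a quartile of -1.04, and just above it in the last, at -0.81 against -0.85. Its distance from the quartile was under its SE of 0.15 in WT tetracycline, WDM tetracycline and WDM arsenite.

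Against genes of like length the other 4 took different places, some of them within the SE of a quartile. GNE, at -0.64, -0.31, -0.17 and -0.37, lay below the lower quartile of its 1369 like genes in all 4 settings, which was -0.33, -0.27, -0.08 and -0.18, while their medians were all above 0. The distance of GNE from the quartile was under its SE of 0.14 in WDM tetracycline and WT arsenite. DNAJB6 lay between the quartiles of its 1341 like genes in all 4 settings, above their medians with tetracycline alone (-0.59 and -0.58) and below them after arsenite (-0.53 and -0.45). VCP was below the lower quartile of its 1574 like genes with tetracycline alone, at -0.90 against -0.74 and -0.63 against -0.62, and inside the quartiles after arsenite. Both distances of VCP below the quartile were under its SE of 0.18. FLNC exceeded the upper quartile of its 565 like genes in WT tetracycline (1.68), WT arsenite (1.44) and WDM arsenite (1.25), and in WDM tetracycline its 0.95 lay under that quartile of 1.42. It passed the low-count filter only through the granule libraries, which built in a higher granule value. Its cytosolic groups held only 11 to 34 counts each, so its place among like genes is not a result.

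**Figure D2:**
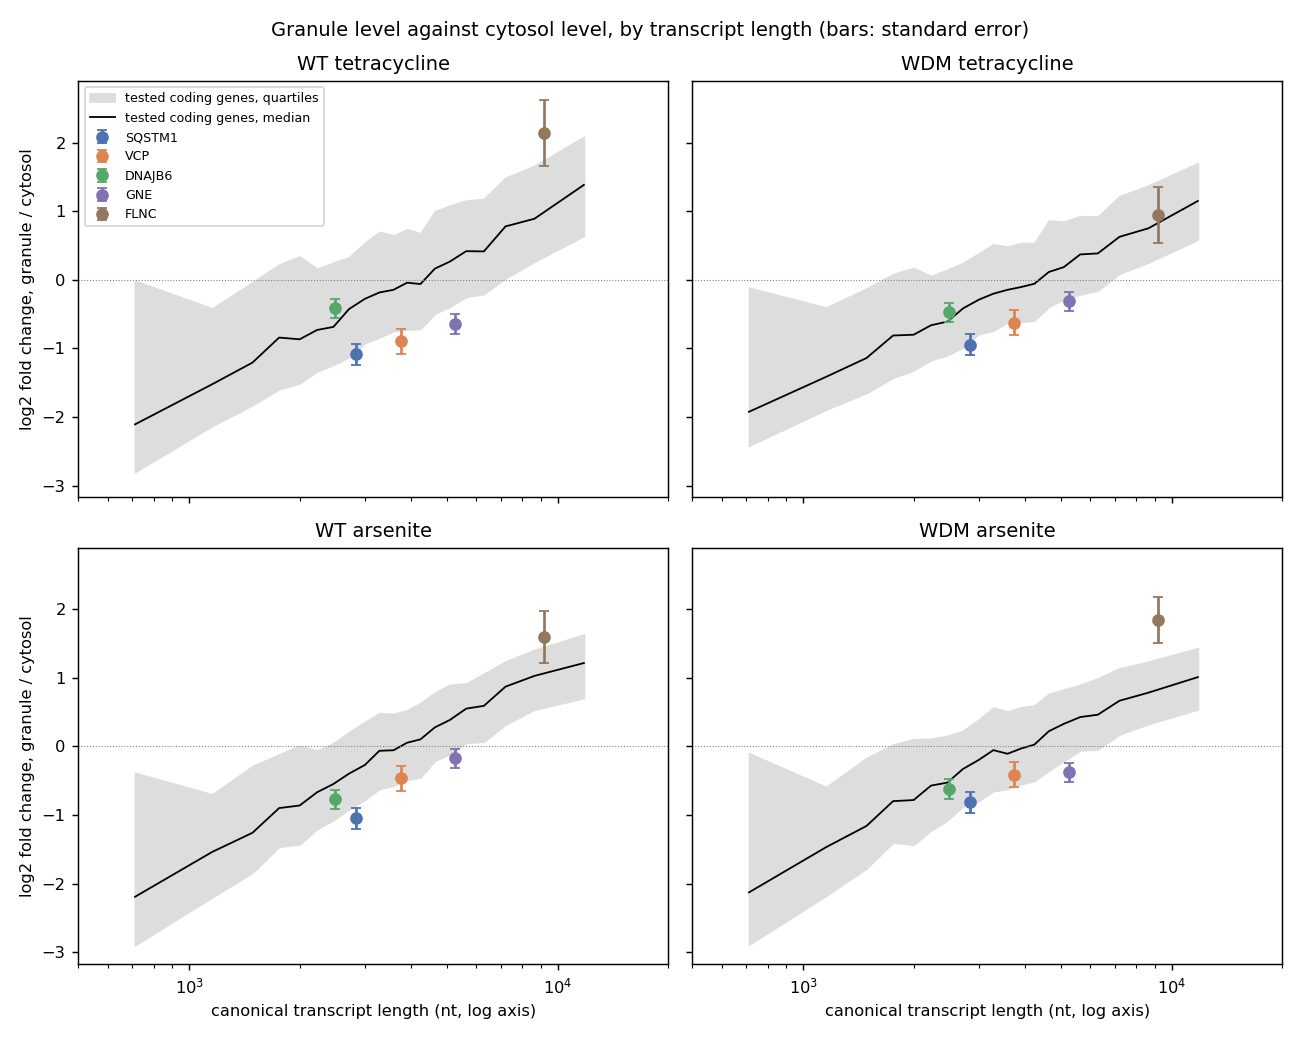
Log2 difference between granule fraction and cytosol (vertical axis) against canonical transcript length in nt (horizontal axis, log scale), with the 5 genes as points over the median and quartiles of all tested coding genes in bins of length. Longer transcripts have higher values, FLNC sits at the long end above 0, and SQSTM1, VCP and GNE sit below the line of genes of their length. FLNC passed the low-count filter only through the granule libraries.

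The number of U-rich pentamers in the 3′UTR differed widely among the 5 genes. The pentamer TTTTT, counted with overlaps on the strand of the gene, occurred 19 times in the 3′UTR of GNE (2924 nt), 9 times in that of DNAJB6 (1341 nt), 5 times in that of FLNC (749 nt) and once each in those of VCP (1053 nt) and SQSTM1 (1485 nt). Across the tested coding genes, rho between this count and the granule difference was 0.15 to 0.31 over the 4 settings; 3′UTR length was not held constant. The GC content of the transcript ran from 45.5% in GNE to 62.3% in FLNC, and its rho with the granule difference lay between -0.09 and 0.11.

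In the cytosol, arsenite lowered GNE in both lines and left the other 3 tested genes without a call. GNE went from 54.2, 65.3 and 63.8 CPM with tetracycline alone to 48.6, 48.9 and 52.0 CPM in WT cells. In WDM cells it went from 57.0, 65.9 and 63.2 CPM to 52.2, 42.9 and 52.0 CPM. Neither line's groups overlapped, and GNE fell to a fold of 0.825 in WT (log2 -0.28 ± 0.10, adjusted p = 0.0351) and 0.782 in WDM cells (log2 -0.35 ± 0.10, adjusted p = 0.00972). That was 1 of 4 genes in each line, where the background was 29% of all genes for WT (13.7% up, 15.4% down) and 28.8% for WDM cells (14.1% up, 14.8% down). The WT call rests on few libraries. It was lost without tetracycline library 2 (adjusted p = 0.160) or 3 (0.142) and without arsenite library 1 (0.101), 2 (0.108) or 3 (0.0571), and it stood in 1 of 6 such fits. The WDM call was lost without tetracycline library 2 (adjusted p = 0.0555). With library size alone, which moves the median of all genes by 0.14 in the WT comparison, the WT difference of GNE was -0.14 (adjusted p = 0.275). With the replicate number as a block in a fit of the WT tetracycline and arsenite libraries alone, it was -0.24 (adjusted p = 0.0573). The arsenite effect did not differ detectably between the lines (interaction log2 -0.08, 95% interval -0.34 to 0.19; 0% of all genes were called, and 0 of the 4, none at an unadjusted p under 0.05 and none by DESeq2).

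SQSTM1, VCP and DNAJB6 showed no arsenite call in the cytosol within the hour. SQSTM1 moved from 178, 213 and 235 to 194, 208 and 210 CPM in WT cells, a log2 difference of -0.02 (95% interval -0.26 to 0.22, adjusted p = 0.924), and the sign of this value turned with library size alone and without a low-count filter. In WDM cells it was 0.08 (-0.16 to 0.32). VCP changed by -0.12 (-0.37 to 0.12) in WT and -0.05 (-0.29 to 0.20) in WDM cells, and both signs turned with library size alone. DNAJB6 changed by 0.08 (-0.10 to 0.27) and 0.11 (-0.07 to 0.29), and with library size alone the WT value became 0.22 (adjusted p = 0.0498). All 6 pairs of groups overlapped.

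Some chaperones of the list around DNAJB6 were called in the same libraries. DNAJB1, the J-domain partner of inducible HSP70, stood at 75.9, 78.6 and 81.4 CPM with tetracycline alone and 116, 115 and 117 CPM after arsenite in WT cells. In WDM cells it stood at 65.4, 84.9 and 77.9 CPM and then 110.2, 159 and 119 CPM. DNAJB1 rose in both lines without overlap, by 0.58 (adjusted p = 0.0009) and 0.75 (adjusted p = 0.00011) on the log2 scale. BAG3, the HSP70 partner that links these co-chaperones to autophagy and is itself a myofibrillar myopathy gene, rose by 0.83 (adjusted p = 0.00069) and 0.92 (adjusted p = 0.00029). HSPA1A and HSPA1B, near-identical copies of inducible HSP70 whose reads the counting may have divided between them, rose by 0.50 and 0.52 in WT and 0.46 and 0.42 in WDM cells. Of the 23 tested genes in the list of DNAJ co-chaperones and assisted-autophagy chaperones, 4 rose and 5 fell in WT cells and 5 rose and 2 fell in WDM cells, and 14 and 16 were not called, beside 29% and 28.8% of all genes called.

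**Figure D3:**
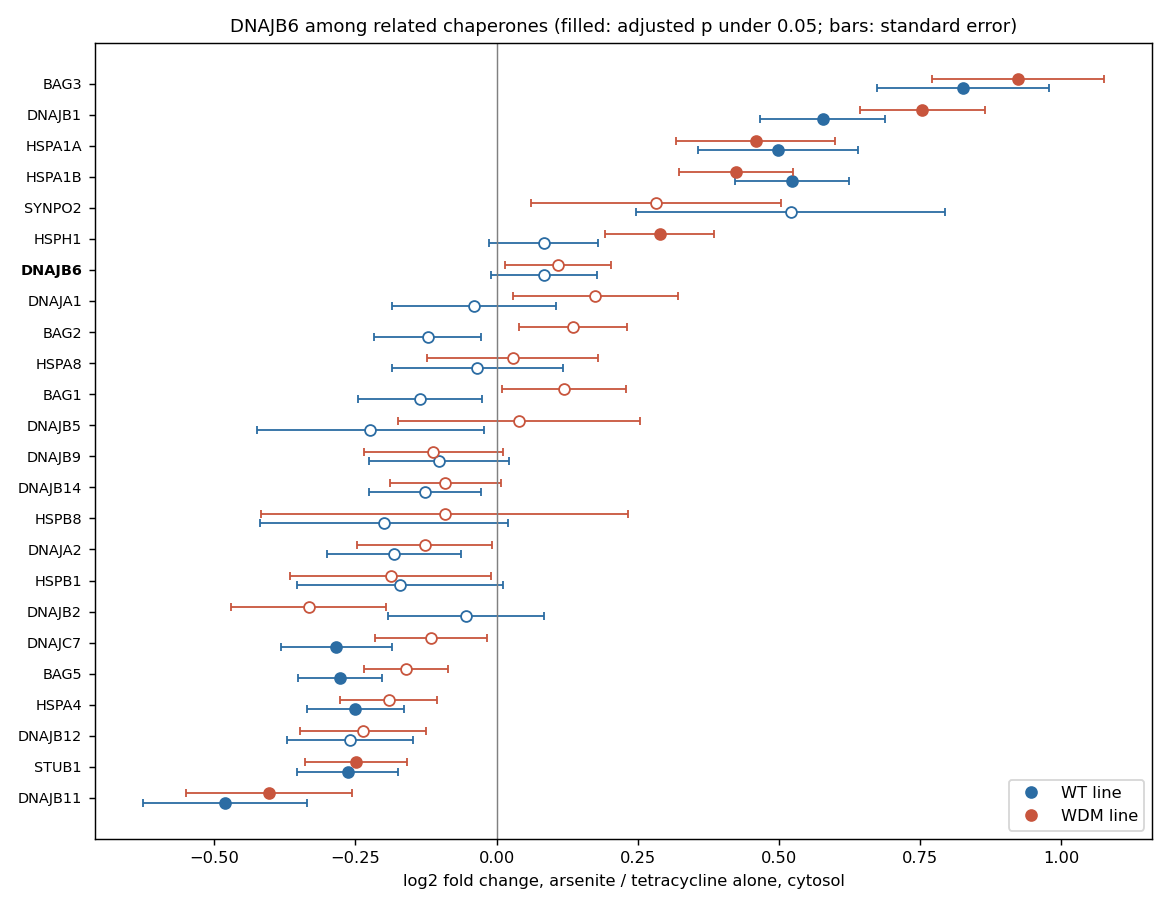
Log2 difference in the cytosol between arsenite and tetracycline alone (horizontal axis) for the listed chaperone genes (vertical axis), one symbol for each line, filled where the adjusted p was under 0.05, with the bars at the standard error. BAG3 and DNAJB1 have the largest called increases in both lines, and DNAJB6 lies near 0 at 0.08 and 0.11.

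DNAJB1 was called with arsenite in the cytosol and DNAJB6 was not, and no test compared the 2 genes. Upstream sequences of the 2 genes, picked because both carry heat-shock element letters, are shown here. They are the 250 bases before a RefSeq start (GRCh38.p14), the only one of DNAJB6 and 1 of 3 of DNAJB1, chr7:157336754-157337003 on the plus strand for DNAJB6 and chr19:14518398-14518647 on the minus strand for DNAJB1. Capitals mark the 3-unit heat-shock element and TGACNNNGC in DNAJB6 and GAANNTTC in DNAJB1.
DNAJB6: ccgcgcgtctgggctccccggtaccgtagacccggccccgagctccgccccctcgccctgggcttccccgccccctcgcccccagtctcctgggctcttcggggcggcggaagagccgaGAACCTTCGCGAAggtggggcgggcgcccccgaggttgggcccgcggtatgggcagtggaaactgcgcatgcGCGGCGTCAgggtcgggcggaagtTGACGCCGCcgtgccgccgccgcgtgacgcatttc
DNAJB1: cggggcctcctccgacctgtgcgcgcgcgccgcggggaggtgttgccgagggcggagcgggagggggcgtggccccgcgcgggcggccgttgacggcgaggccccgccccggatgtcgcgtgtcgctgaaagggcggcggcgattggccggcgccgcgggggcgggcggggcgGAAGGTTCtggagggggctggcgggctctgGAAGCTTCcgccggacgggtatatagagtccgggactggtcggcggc
The 3-unit heat-shock element of DNAJB6 begins 131 bases before the start, and 0.490% of 35116 RefSeq windows, each from 250 bases before a start to 50 after it, hold such an element on either strand. It is made of GAANNTTC and TTCNNGAA, which share their central letters. TGACNNNGC, the core of the antioxidant response element, is found 2 times in DNAJB6 and in 13.3% of all windows. The 2 GAANNTTC sites of DNAJB1 begin 77 and 47 bases before its start, and 6.77% of windows hold this motif. The windows at the other 2 DNAJB1 starts held 1 and 0 such sites. The window of BAG3, which also rose with arsenite, held 0 heat-shock element motifs and 1 AP-1 site (TGANTCA). VCP had 1 TGACNNNGC, 189 bases before its start. The windows of SQSTM1 (3 starts), GNE (2) and FLNC (1) held none of these, nor the AP-1 site TGANTCA, the E-box CACGTG or the cyclic AMP response element TGACGTCA, all searched on both strands. A match or its absence in this window says nothing of a factor's binding.

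In the granule fraction, arsenite raised FLNC in WDM cells, the only call among the 5 genes there. FLNC stood at 1.30, 1.59 and 1.01 CPM with tetracycline alone and 3.32, 2.63 and 2.36 CPM after arsenite in WDM cells. The groups did not overlap, and FLNC rose 2.10-fold (log2 1.07 ± 0.32, adjusted p = 0.0108) from a sum of 53 counts to 207. In WT cells it stood at 2.09, 1.02 and 1.15 CPM and then 1.44, 2.61 and 1.59 CPM, which overlapped (log2 0.47 ± 0.34, adjusted p = 0.302). The difference between the lines was 0.60 ± 0.47 (adjusted p = 0.612), so the response was not shown to differ. The WDM call was lost without tetracycline library 3 (adjusted p = 0.0728). All 5 genes were tested here. In WDM cells 1 of 5 was called, where 36.3% of all genes were (18.7% higher, 17.7% lower). By edgeR or DESeq2 0 of 5 were called in WT cells, where 30.6% of all genes were (16.5% higher, 14.1% lower). An unadjusted p under 0.05 was found in WT cells for 7689 of all 18366 genes and for 1 of the 5.

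That gene was VCP. In WT granules VCP stood at 240, 299 and 234 CPM with tetracycline alone and 362, 331 and 402 CPM after arsenite, without overlap (log2 0.42 ± 0.18, adjusted p = 0.0834). In WDM granules it stood at 189, 340 and 314 CPM and then 276, 398 and 352 CPM (0.26 ± 0.18, adjusted p = 0.287). SQSTM1 in WDM granules stood at 70.0, 103 and 99.4 CPM and then 106, 130 and 107 CPM, without overlap (0.30 ± 0.15, adjusted p = 0.127). Same-numbered WDM granule libraries deviated together. With the number as a block in a fit of these 6 libraries, SQSTM1 (0.34, adjusted p = 0.0193) and VCP (0.30, adjusted p = 0.0296) also passed. That fit was added after seeing the data. The share of all genes it called is not given here, and the fit of all 12 granule libraries called 36.3%. DNAJB6 moved by -0.16 ± 0.16 in WT and 0.04 ± 0.16 in WDM granules.

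GNE moved in opposite directions in the granules of the lines, short of the threshold. It stood at 39.0, 41.5 and 29.6 CPM and then 49.5, 44.4 and 48.7 CPM in WT granules, without overlap (log2 0.30 ± 0.17, adjusted p = 0.190). In WDM granules it stood at 44.2, 55.3 and 49.3 CPM and then 38.5, 33.2 and 49.2 CPM, with overlap (-0.33 ± 0.17, adjusted p = 0.135). The interaction of arsenite and line was -0.62 ± 0.24, with an unadjusted p of 0.0154 and an adjusted p of 0.300 by edgeR. No gene of the table was called by edgeR in that interaction (0% of 18366), though 2329 had an unadjusted p under 0.05. DESeq2 called none of the 5.

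FLNA, the common filamin of non-muscle cells, stood at 925 to 1283 CPM in the cytosol, where FLNC stayed under 1 CPM. Of the 14 tested filamins and filamin partners, 2 rose and 4 fell in WT granules and 2 rose and 1 fell in WDM granules with arsenite. Of all genes, 16.5% and 18.7% rose and 14.1% and 17.7% fell. The integrin subunit ITGB1 (1.31 and 0.60) and talin TLN1 (0.95 and 1.38) rose in both lines.

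Between the lines, none of the 4 genes tested in the cytosol was called in its 3 settings, and none of the 5 tested in granules in the 2 settings there. FLNC did not pass the low-count filter in the cytosol. In the untreated cytosol VCP was at 441, 460 and 489 CPM in WT and 385, 369 and 424 CPM in WDM cells, without overlap (log2 -0.30 ± 0.13, adjusted p = 0.152). GNE stood at 68.7, 63.5 and 65.7 CPM in WT and 75.3, 76.1 and 79.4 CPM in WDM cells, again without overlap (0.16 ± 0.09, adjusted p = 0.301). DNAJB6 was at 98.2, 100.2 and 109 CPM and 115, 122 and 113 CPM, without overlap (0.13 ± 0.09, adjusted p = 0.435). SQSTM1 was at 149.5, 161 and 175 CPM and 151, 146 and 131 CPM, with overlap (-0.24 ± 0.12, adjusted p = 0.244). None of the 4 was called by edgeR or DESeq2 and 1 had an unadjusted p under 0.05. Of all 16670 genes, 9.78% were called and 3992 had an unadjusted p under 0.05. A fit of these 6 libraries alone called 3 of the 4: SQSTM1 (adjusted p = 0.00075), VCP (9.0e-05) and GNE (0.0304), at the same log2 differences. That fit called 5463 genes over the whole table, against 1631 in the fit of all 18 cytosolic libraries.

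With tetracycline alone the cytosolic line differences were -0.21 ± 0.13 for VCP, -0.22 ± 0.12 for SQSTM1, 0.11 ± 0.09 for DNAJB6 and 0.05 ± 0.10 for GNE. Without WT library 1, VCP (-0.34, adjusted p = 0.0351) and SQSTM1 (-0.33, adjusted p = 0.0411) passed the threshold. After arsenite the differences were -0.13 for VCP, -0.12 for SQSTM1, 0.13 for DNAJB6 and -0.03 for GNE. The groups overlapped for all 4 in both settings. No gene of the 4 was called by edgeR or DESeq2 or had an unadjusted p under 0.05. Of all 16670 genes, 12.6% and 10.4% were called, and 4486 and 3860 had an unadjusted p under 0.05. Epithelial markers differed between the lines in the same cytosols. Their summed level was 478 to 516 CPM in untreated WT and 351 to 368 CPM in untreated WDM cells. In each setting 3 of 5 tested markers were lower in WDM cells, beside 5.60% (untreated), 6.84% (tetracycline) and 5.37% (arsenite) of all genes. Whether this had a part in the line differences was not tested.

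In the granule fraction the line differences with tetracycline alone were 0.39 ± 0.17 for GNE, without overlap (adjusted p = 0.230), and between -0.07 and 0.07 for the other 4. After arsenite FLNC differed by 0.54 ± 0.29 (adjusted p = 0.246), DNAJB6 by 0.27 ± 0.16 (adjusted p = 0.301), GNE by -0.24 ± 0.17 (adjusted p = 0.403), SQSTM1 by 0.10 and VCP by -0.09. None of the 5 was called by edgeR or DESeq2 in either setting, where 5.55% and 7.95% of all genes were. With tetracycline alone 1 had an unadjusted p under 0.05 and after arsenite none did. Of all 18366 genes, 3167 and 4450 had an unadjusted p under 0.05.

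Tetracycline, which switches on GFP-TIA1a, was followed by higher SQSTM1 and DNAJB6 in both lines without an adjusted call. SQSTM1 went from 149.5, 161 and 175 to 178, 213 and 235 CPM in WT cells (0.29 ± 0.12, adjusted p = 0.167), and from 151.0, 146 and 131 to 151.5, 195 and 183 CPM in WDM cells (0.31 ± 0.12, adjusted p = 0.139). DNAJB6 went from 98.2, 100.2 and 109 to 117, 135 and 139 CPM (0.26 ± 0.09, adjusted p = 0.105) and from 115, 122 and 113 to 128, 149 and 134 CPM (0.24 ± 0.09, adjusted p = 0.135). Neither gene overlapped between the groups, though SQSTM1 in WDM cells was clear of overlap only at 151.5 against 151.0 CPM. GNE in WDM cells went the other way, from 75.3, 76.1 and 79.4 to 57.0, 65.9 and 63.2 CPM, also without overlap (-0.30 ± 0.09, adjusted p = 0.0608); library size alone (-0.33, adjusted p = 0.0355) and DESeq2 (-0.30, adjusted p = 0.0444) called it. VCP changed by 0.07 ± 0.13 and 0.16 ± 0.13.

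Of the 4 genes, edgeR called none in either line after tetracycline, and DESeq2 none in WT and 1 in WDM cells; 2 in WT and 3 in WDM cells had an unadjusted p under 0.05. Of all genes, 5.31% and 6.3% were called, and 3633 and 3536 of 16670 had an unadjusted p under 0.05. Without WT tetracycline library 1, which had the lowest level of all 4 genes in its group, DNAJB6 (0.35, adjusted p = 0.0226) and SQSTM1 (0.41, adjusted p = 0.0345) passed in WT cells. The tetracycline effect did not differ detectably between the lines for any of the 4 (interaction log2 -0.11 to 0.08; 0.018% of all genes called; none of the 4 at an unadjusted p under 0.05 and none by DESeq2).

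**Figure D4:**
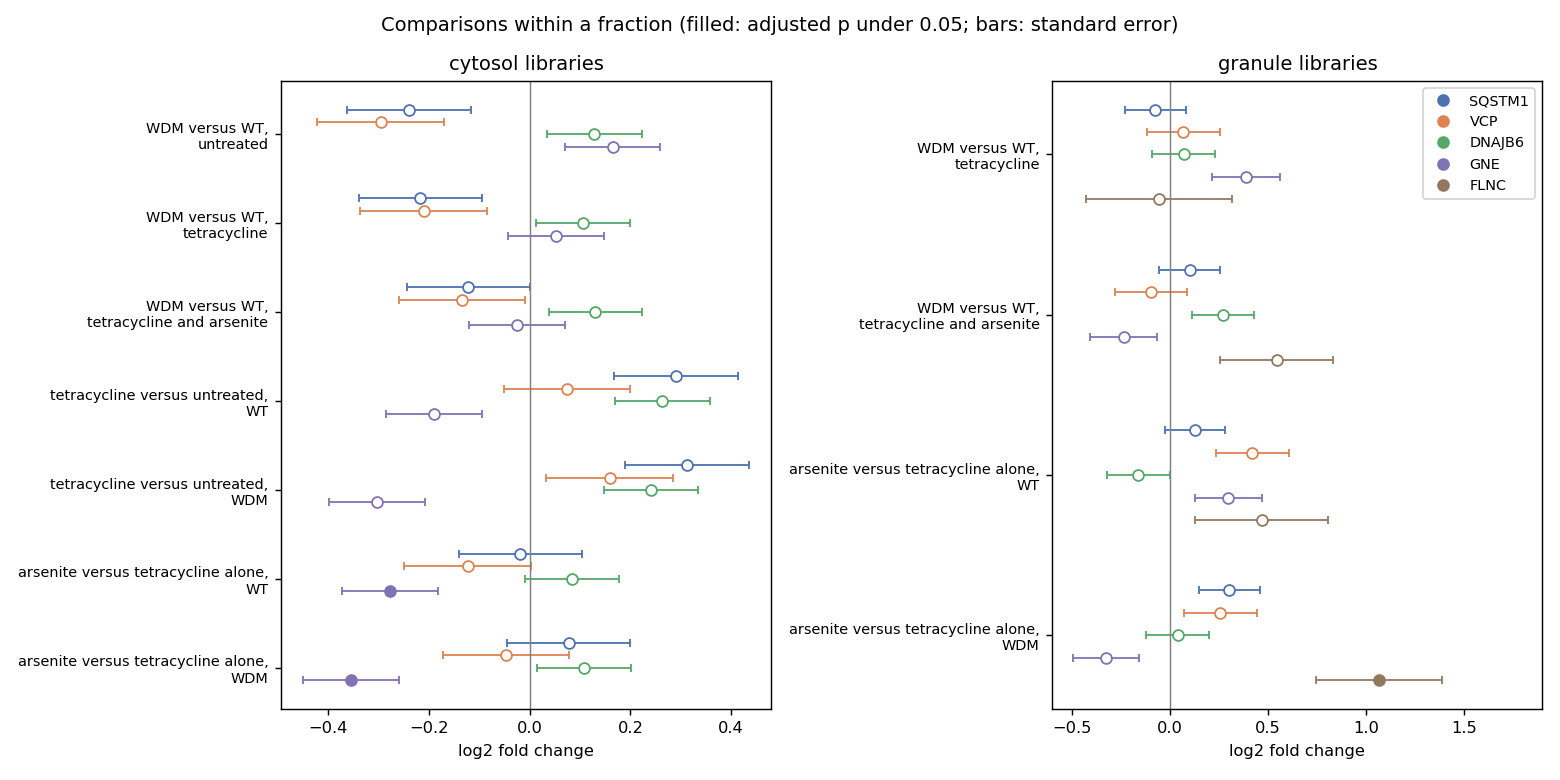
Log2 differences (horizontal axis) of the 5 genes in the 11 comparisons of line, tetracycline and arsenite within a fraction, with bars at the standard error and filled symbols for adjusted p under 0.05. The 3 filled symbols are GNE after arsenite in the cytosol of both lines and FLNC after arsenite in WDM granules.

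The change of the granule minus cytosol difference with arsenite was tested for each gene. In WT cells it was 0.47 ± 0.20 for GNE (adjusted p = 0.0685), 0.44 ± 0.26 for VCP (adjusted p = 0.202), -0.35 ± 0.20 for DNAJB6 (adjusted p = 0.178), 0.04 ± 0.22 for SQSTM1 and -0.55 ± 0.64 for FLNC. None of the 5 was called by edgeR and 1 by DESeq2 (GNE, 0.51, adjusted p = 0.0456), beside 31.4% of all genes called by edgeR. An unadjusted p under 0.05 was found for 1 of the 5 and for 7628 of all 18141 genes. GNE passed in edgeR without cytosolic WT tetracycline library 1 (0.57, adjusted p = 0.0352) or granule WT tetracycline library 2 (0.58, adjusted p = 0.0371). In WDM cells the values were -0.06 for GNE, 0.21 for VCP, -0.15 for DNAJB6, 0.14 for SQSTM1 and 0.89 ± 0.55 for FLNC. None of these was called by edgeR or DESeq2, beside 24.2% of all genes called. None had an unadjusted p under 0.05, beside 6565 of all 18141 genes. The fraction difference itself did not differ between the lines by a called amount for any of the 5 by edgeR or DESeq2, with tetracycline alone or after arsenite, where 0.00551% of all genes were called each time and none of the 5 had an unadjusted p under 0.05. The largest of these values was -1.19 ± 0.65 for FLNC with tetracycline alone (adjusted p = 0.833).

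In the order of the 10 group means, all 6 cytosolic groups stood above all 4 granule groups for SQSTM1 and VCP and below them for FLNC, while the fractions interleaved for DNAJB6 and GNE. Neighbours in the order mostly overlapped. SQSTM1 and VCP were highest in the WT cytosol with tetracycline alone, at 209 ± 28.6 and 514 ± 76.9 CPM (SD, n = 3). SQSTM1 was lowest in the WDM granules with tetracycline alone (90.7 ± 18.0 CPM) and VCP in the WT granules (258 ± 35.6 CPM). DNAJB6 was highest in the WDM cytosol after arsenite (149 ± 20.5 CPM) and lowest in the WT granules after arsenite (85.6 ± 10.5 CPM). GNE was highest in the untreated WDM cytosol (76.9 ± 2.13 CPM) and lowest in the WT granules with tetracycline alone (36.7 ± 6.29 CPM). Of the 9 pairs of neighbouring groups in each order, 1 was without overlap for SQSTM1, 0 for VCP and DNAJB6, and 2 for GNE and FLNC. The SQSTM1 pair was the untreated WDM cytosol (143 ± 10.4 CPM) above the WDM granules after arsenite (114 ± 13.6 CPM), at the boundary of the fractions. FLNC broke there too, between 1.30 ± 0.289 CPM in WDM granules with tetracycline alone and 0.720 ± 0.225 CPM in the WDM cytosol after arsenite.

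The pathways around the 5 genes were described by lists. Differences between fractions in these lists were not set against genes of like length. Among 22 tested autophagy receptors and core autophagy genes, the partners of SQSTM1, 4 were higher and 13 lower in granules with tetracycline alone in each line, with medians of -0.68 and -0.60 against 0.07 and 0.02 over all genes, of which 39.5% and 35.8% were higher and 36.2% and 35.3% lower. After arsenite the counts were 4 and 11 in WT and 4 and 12 in WDM cells, with medians of -0.36 and -0.57, beside 35% and 36.3% of all genes higher and 35.5% and 35.7% lower; these 4 pairs of shares over all genes apply to each list compared between fractions below. GABARAPL2, a small ubiquitin-like protein of the autophagosome, was lower at -2.03 in WT cells with tetracycline alone, whereas the scaffold WDFY3 (1.95) and the E1-like enzyme ATG7 (1.68) were higher. In the cytosol arsenite raised 1 and lowered 3 in WT (ATG7 0.50, ATG9A -0.41, GABARAPL2 -0.37, NBR1 -0.26) and raised 2 and lowered 3 in WDM cells, out of 22, beside 13.7% and 14.1% of all genes raised and 15.4% and 14.8% lowered. In the granules it raised 5 and lowered 4 in each line, beside 16.5% and 18.7% of all genes raised and 14.1% and 17.7% lowered. MAP1LC3B (LC3) was among them and rose by 0.73 and 0.97. These shares too apply to the lists below. KEAP1, which SQSTM1 binds, was lower in granules by -1.31 and -1.05 with tetracycline alone and did not pass in the cytosol with arsenite (-0.06 and -0.01).

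Of 27 tested VCP cofactors, 5 were higher and 16 lower in WT granules with tetracycline alone and 3 and 15 in WDM granules, with medians of -0.55 and -0.48. After arsenite the counts were 6 and 18 and 4 and 17, with medians of -0.68 and -0.67. The medians over all genes were 0.07, 0.02, 0.05 and 0.06. NPLOC4, which forms with UFD1 the adaptor that brings substrates to VCP, showed no granule call in any of the 4 settings (-0.25 to -0.01), while its partner UFD1 was lower in all 4 (-1.30, -1.16, -1.80 and -1.51). In the cytosol arsenite raised 1 and lowered 7 cofactors in WT and raised 1 and lowered 6 in WDM cells; SELENOS (-0.64 and -0.52) and DERL2 (-0.52 and -0.49), which serve VCP at the endoplasmic reticulum, fell in both. Between the lines UBXN6 was lower in the WDM cytosol in all 3 settings (-0.60, -0.48 and -0.53), in counts of 1 higher and 2 lower untreated, 0 and 3 with tetracycline and 0 and 1 with arsenite. Of all genes, 4.19%, 5.80% and 4.98% were higher and 5.60%, 6.84% and 5.37% lower in these settings.

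Of 23 tested genes of the chaperone list, 1 was higher and 20 lower in granules with tetracycline alone in each line, and 1 and 17 (WT) and 1 and 16 (WDM) after arsenite. Its medians were -1.18, -0.94, -0.92 and -0.90, further from 0 than the values of DNAJB6 in every setting. HSPB1 (-2.20) and DNAJA2 (-1.90) led in WT cells with tetracycline alone. In granules arsenite raised 6 and lowered 1 in WT and raised 6 and lowered 3 in WDM cells, with DNAJB1 at 1.33 and 1.01 and BAG3 at 0.66 and 1.24. Between the lines in the cytosol, 0 of the 23 were higher and 3 lower in WDM cells untreated, 1 and 7 with tetracycline alone and 1 and 1 after arsenite. Of all genes, 4.19%, 5.80% and 4.98% were higher and 5.60%, 6.84% and 5.37% lower. HSPB8, the small heat-shock partner of BAG3 and also a myopathy gene, was lower in the WDM cytosol with tetracycline alone. It stood at 1.31 ± 0.272 CPM against 5.42 ± 0.846 CPM (log2 -2.05, adjusted p = 2.1e-05).

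**Figure D5:**
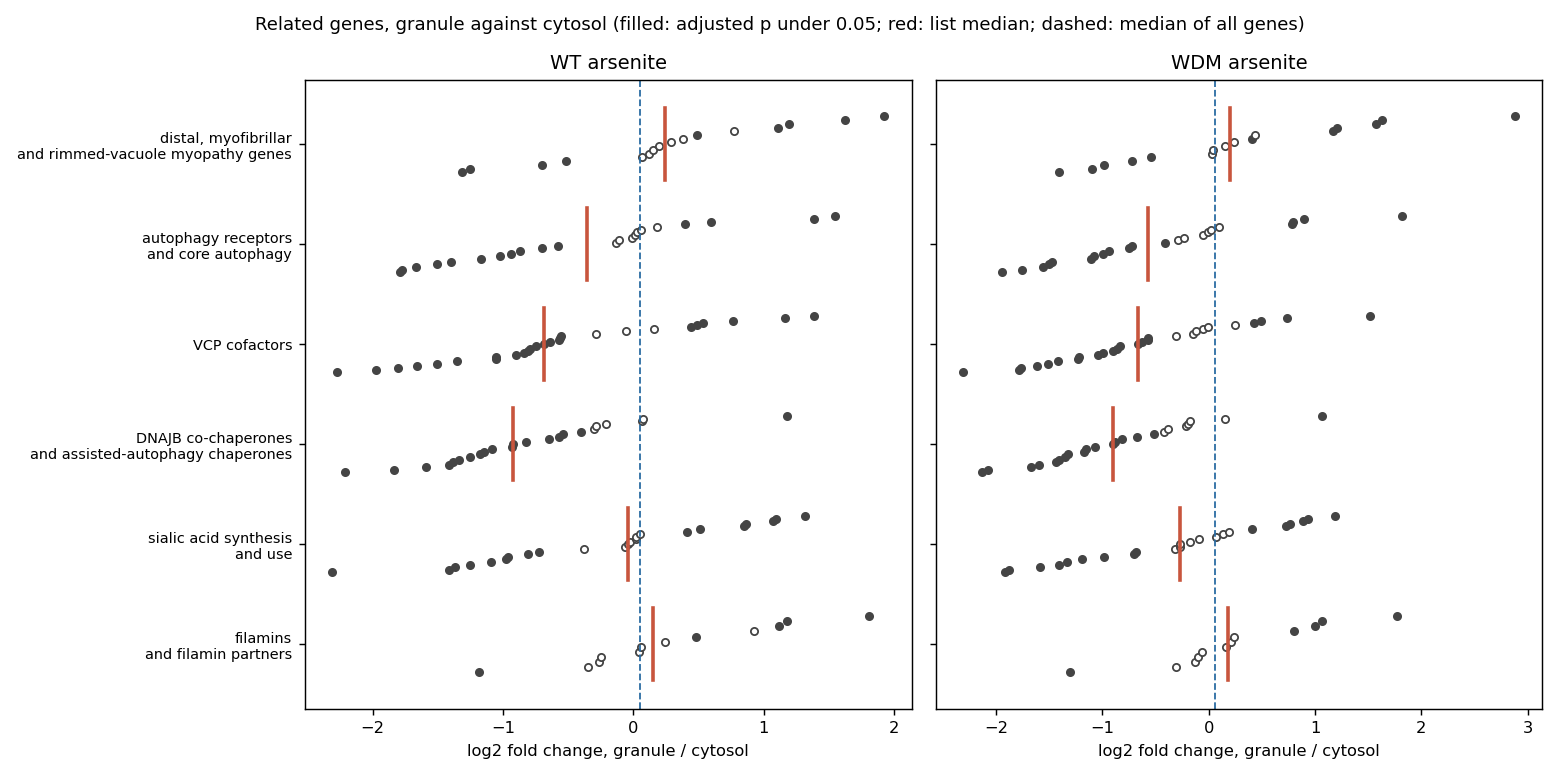
Log2 difference between granule fraction and cytosol after arsenite (horizontal axis) for the tested genes of 6 lists (vertical axis), WT and WDM in separate panels; each point is a gene, filled where the adjusted p was under 0.05, the red line the median of the list and the dashed line the median of all genes. The chaperone list has medians of -0.92 and -0.90, and the filamin list lies above the median of all genes, at 0.15 and 0.18. Some listed genes passed the low-count filter only with the granule libraries.

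Of 22 tested genes of sialic acid synthesis and use in the cytosol with arsenite, 1 rose and 7 fell in WT and 1 rose and 8 fell in WDM cells, with medians of -0.21 and -0.23 against -0.02 and 0.00 over all genes. SLC17A5, the lysosomal sialic acid exporter, fell by 0.60 and 0.55, the sialyltransferase ST3GAL1 by 0.44 and 0.64, and CMAS, which activates sialic acid, by 0.31 and 0.30. In granules against cytosol, 3 were higher and 13 lower (WT) and 4 and 13 (WDM) with tetracycline alone, and 7 and 9 and 6 and 9 after arsenite. There 23 genes were tested, against 22 in the cytosol, so not all passed the low-count filter on cytosolic libraries. NANS, which acts after GNE in the pathway, was lower in granules in all 4 settings (-2.16, -1.74, -2.31 and -1.88), by more than GNE. Transcript length was not held constant in this comparison. With arsenite 5 genes rose and 0 fell by edgeR in WT granules, and 5 rose and 2 fell in WDM granules; GFPT1, which feeds the hexosamine pathway, rose by 1.14 and 0.67.

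Of the other distal, myofibrillar and rimmed-vacuole myopathy genes, 13 of 25 were tested in the cytosol and 16 in the comparison of fractions. With arsenite 4 rose and 4 fell in the WT cytosol and 2 rose and 4 fell in the WDM cytosol, beside 13.7% and 14.1% of all genes raised and 15.4% and 14.8% lowered: ACTN2, the Z-disc actinin, rose by 1.13 and 1.08, the lysosomal membrane protein LAMP2 fell by 0.66 and 0.62, and VMA21, an assembly factor of the proton pump, fell by 0.48 and 0.35. In granules arsenite raised 4 and lowered 1 in WT and raised 3 and lowered 2 in WDM cells, led by ADSS1, a muscle enzyme of adenine nucleotide synthesis (1.23 and 2.72). Against cytosol, 7 were higher and 5 lower in WT granules with tetracycline alone, 5 and 5 in WDM, 5 and 4 in WT with arsenite and 6 and 5 in WDM with arsenite, out of 16. NEB, which encodes the giant thin-filament protein nebulin, was higher in all 4 (3.17, 2.25, 1.20 and 1.20). Of 12 tested filamins and partners, 7 were higher and 3 lower in granules with tetracycline alone in each line and 4 and 1 after arsenite. In the cytosol 11 of this list were tested. Genes of either list that passed the low-count filter only with granule libraries had a higher granule value built into their being tested.

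A pair of lists served as markers. Of 6 epithelial markers, 0 were higher and 5 lower in granules with tetracycline alone in both lines, and 0 and 4 after arsenite, by edgeR. Of 4 tested muscle markers, 3 were higher and 1 lower in WT and 2 and 1 in WDM granules with tetracycline alone, and 2 and 1 after arsenite in both. TNNT1 was the lower gene at -1.81 in WT cells with tetracycline alone. In the cytosol alone 3 muscle markers passed the low-count filter. A marker that passed only with the granule libraries had a higher granule value built into its being tested.

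As a description of co-variation, the genes most like each of the 5 were found by Pearson's r over the 30 libraries after centring log2 CPM within each fraction, among 11511 named genes (11512 for FLNC). The libraries share treatment, line and depth, so r has no test here. SQSTM1 was most like MEPCE (0.91), BCL7B (0.89) and U2AF2 (0.89), and VCP most like EIF4A3 (0.94), AHSA1 (0.94) and ALYREF (0.93). DNAJB6 was most like SLC25A33 (0.84), WDR20 (0.82) and IP6K2 (0.80), and GNE most like SLC39A10 (0.90), ITGA6 (0.86) and NEFL (0.86). FLNC, with few counts, reached 0.68 with ELL, 0.66 with CARD9 and 0.66 with DLG4.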

How the data were processed

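RNA from 30 libraries in 10 groups of 3 was sequenced after a stranded total RNA preparation with ribosomal RNA removal, per the labels. The authors deposited a table of raw counts per gene; Trimmomatic, STAR, Picard, featureCounts and GRCh38 are named in the submitters' processing notes, while versions, the strand setting and the handling of overlapping genes are not given in the sources used here. The table holds 60664 genes, 40609 of them named, and 60463 of its gene IDs matched GENCODE 44 (56693 with the same span). Sequences came from GRCh38 and from RefSeq (GRCh38.p14).

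Counts were tested with edgeR 4.0.16 (R 4.3.3): genes kept by filterByExpr (minimum count 10, minimum total 15), TMM factors, a mean for each group, the robust quasi-likelihood test, and Benjamini-Hochberg adjustment over all genes tested, with a call at an adjusted p under 0.05. The cytosol (18 libraries, 16670 genes), the granule fraction (12 libraries, 18366 genes) and both fractions with tetracycline (24 libraries, 18141 genes) were fitted apart, giving 15 comparisons of groups and 7 interactions. Library totals of 5906167 to 27419145 counts limit FLNC most. Intervals are 95%.

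The alternatives tried were DESeq2 1.42.0, RLE factors, scaling by library size alone, no filter on low counts, the replicate number as a block, only the groups compared, and each library left out in turn; the block within only the groups compared was added after seeing the data. As a check of pairing, deviations from group means of same-numbered libraries were correlated over genes: every one was over 0.1 in 5 of 15 comparisons (cytosol, WT, tetracycline against untreated; cytosol, WT, arsenite; granule, WDM, arsenite; granule against cytosol after arsenite in both lines), with a range over all 15 of -0.378 to 0.802. The labels give only the numbers. No 2 libraries of a group agreed within sampling noise (chi-square per degree of freedom 1.63 to 40.7).

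The 5 genes and 8 gene lists (chaperones, VCP cofactors, autophagy, sialic acid, other myopathy genes, filamins, epithelial and muscle markers) were chosen with earlier results of these data known. Of each list, at most 4 genes a comparison were to be named: those called with the largest differences and a group mean of 5 CPM or more; DNAJB1, BAG3, FLNA, KEAP1, NPLOC4, UFD1, NANS and CMAS are given where they fall outside that rule as partners of the 5 genes, with their values seen. Some results are not reported here.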

Additional observations from a re-analysis of the deposited data

How the results depend on the processing

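With all libraries kept, 626 alternative values of the 5 genes' log2 differences had the direction and the side of the threshold given in the report, 16 lost a call, 18 gained one and 14 turned sign. With 1 library left out the numbers were 710, 27, 6 and 61. With library size alone they were SQSTM1 0.12, VCP 0.017 (cytosolic arsenite, WT), VCP 0.043 (WDM), DNAJB6 -0.024 (cytosolic arsenite by line), SQSTM1 -0.0023 (fraction by arsenite, WT) and GNE 0.0027 (WDM). With no low-count filter they were SQSTM1 0.021 (cytosolic arsenite, WT) and -0.017 (tetracycline by line), DNAJB6 -0.0063 (arsenite by line) and 0.036 (fraction by line, tetracycline), and GNE 0.042 (fraction by arsenite, WDM). With only the groups compared they were SQSTM1 0.021 and DNAJB6 -0.0049, and with the replicate block in only the groups compared SQSTM1 0.029. The cause was not tested.

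Leaving out 1 library turned the sign in 26 results, over these ranges. In cytosolic arsenite comparisons the ranges were DNAJB6 -0.0026 to 0.14, SQSTM1 -0.13 to 0.085 and, in WDM cells, SQSTM1 -0.095 to 0.19 and VCP -0.17 to 0.068; by line they were DNAJB6 -0.086 to 0.11, GNE -0.14 to 0.015, SQSTM1 -0.079 to 0.21 and VCP -0.052 to 0.21. For tetracycline they were VCP -0.026 to 0.20 (WT) and, by line, DNAJB6 -0.11 to 0.040, SQSTM1 -0.090 to 0.13 and VCP -0.042 to 0.18. Between lines in the cytosol GNE ran from -0.045 to 0.11 (tetracycline) and -0.084 to 0.065 (arsenite). Between lines in granules with tetracycline DNAJB6 ran from -0.074 to 0.14, FLNC -0.23 to 0.20, SQSTM1 -0.16 to 0.065 and VCP -0.080 to 0.27, and with arsenite VCP -0.21 to 0.041; DNAJB6 after arsenite in WDM granules ran from -0.047 to 0.19. Fraction by arsenite ran from -0.053 to 0.16 (SQSTM1, WT), -0.019 to 0.31 (SQSTM1, WDM), -0.0061 to 0.36 (VCP, WDM) and -0.21 to 0.060 (GNE, WDM), and fraction by line from -0.17 to 0.044 (DNAJB6, tetracycline) and -0.074 to 0.21 (VCP, arsenite).

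The number of the 5 genes called moved as follows. Between untreated lines it was 0, and 3 with only the groups compared, with or without the replicate block. With arsenite in the WT cytosol it was 1, and 0 with no filter, with only the groups compared and with that block; in the WDM cytosol it was 1, and 0 with only the groups compared. With tetracycline it was 0, and 1 in WDM cells with library size alone, the replicate block (GNE -0.30, adjusted p = 0.0405), only the groups compared or DESeq2, and 1 in WT cells with no filter (SQSTM1 0.30, adjusted p = 0.0437). In granules against cytosol in WDM cells it was 5, and 3 with no filter in both settings. Fraction by arsenite in WT cells gave 0, and 2 with no filter and 1 with DESeq2. With the replicate block in only the groups compared, arsenite in granules called 3 in WDM and 1 in WT cells (VCP 0.44, adjusted p = 0.0387), and DNAJB6 in WT granules against cytosol with tetracycline lost its call (-0.37, adjusted p = 0.0598). With a library left out these counts ran from 0 to 2 between lines with tetracycline, 0 to 1 for arsenite in each cytosol, 0 to 2 for tetracycline in WT, 3 to 4 for granules against cytosol in WDM cells, 0 to 1 for fraction by arsenite in WT and 0 to 1 for arsenite in WDM granules. The replicate block over all groups of a fit changed no other call of the 5 genes.

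Over all genes, some numbers called moved by over 1.5 times. With only the groups compared they went from 1631 to 5463 between untreated lines, 2108 to 852 between lines with tetracycline, 4804 to 1921 and 4838 to 2737 for cytosolic arsenite in WDM and WT cells, and 886 to 220 for tetracycline in WT cells. With the replicate block there, the first and last became 5137 and 393, and 1460 between lines in arsenite granules became 940. Tetracycline by line went from 3 to 14 with no filter, 6 with the replicate block and 10 with DESeq2, fraction by line with tetracycline from 1 to 2, and granule arsenite by line from 0 to 44 with no filter and 9 with DESeq2. With a library left out, numbers called ranged from 1209 to 4573 between lines with tetracycline, 929 to 1212 between untreated lines, 1094 to 2205 between lines with arsenite (1726 with all), 189 to 1766 and 422 to 771 (1050 with all) for tetracycline in WT and WDM cells, and 2440 to 7204 and 2490 to 5251 for cytosolic arsenite in WT and WDM cells. In granules they ranged from 570 to 1330 (1019 with all) and 569 to 1719 between lines with tetracycline and arsenite, and 3157 to 5418 (5620 with all) for arsenite in WT cells. Depth limits FLNC most, whose cytosolic groups held 11 to 34 counts each.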
